A study of Populus qamdoensis and Populus schneideri with 18 samples.

Results

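The 100 genes described here had their lowest mean log2 expression under blue film in the leaves of both *P. qamdoensis* and *P. schneideri*. They were chosen by these measured values from a table of 39194 genes. Of these, 22126 averaged 1 FPKM or more over all 18 libraries (FPKM corrects fragment counts for gene length and library size). For each of them the mean of log2(FPKM + 1) was taken per species and film. Genes in which the white film mean exceeded the green film mean by 0.3 or more in either species were dropped, which left 18067. The remaining genes were ranked by the smallest of 4 differences, white minus blue and green minus blue in each species, which was above 0 in 3792 genes. The first 100 were kept. BF replicate 1 of *P. qamdoensis*, a library that stood apart from the others, was left out of these means and differences and entered only the FPKM minimum over all libraries.

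Leaves of both poplars were sampled from cuttings grown under translucent colorless film (WF), blue film (BF) or green film (GF), with 3 libraries per film and species. The labels give no age and no second treatment. According to the study's methods, the *P. qamdoensis* plants were potted cuttings raised in a nursery and kept in a greenhouse under the films. The labels give only the light color for *P. schneideri*, and the study's methods do not describe these plants. The labels call the 3 libraries replicates, and p-values measure the spread between these samples. The WF libraries are the control. Reads of both species were compared to the genome of *P. yunnanensis*, so genes carry its identifiers (Pyun). All 3 antenna protein genes used as a check of the tissue were abundant in all libraries, from 47.4 FPKM for the lowest value of Pyun16G011210 to 547 FPKM for the highest of Pyun02G020650, and the protochlorophyllide reductase gene Pyun01G038270 lay between 8.24 and 43.8 FPKM. GF replicate 1 of *P. schneideri* also stood apart in the genes described here. Its label was followed, whether that label is right was not tested, and every *P. schneideri* GF mean includes it, so values without it stand beside the results it touches.

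Plants sense blue light through cryptochromes and phototropins, and red and far-red light through phytochromes. In Arabidopsis, active photoreceptors restrain the ubiquitin ligase COP1, and the transcription factor HY5 then accumulates and turns on many light-regulated genes. In leaves, blue light is known for opening stomata, moving chloroplasts and holding back elongation, and a colored film changes the whole spectrum below it, red and far-red included. A gene that is low under blue film may therefore stand anywhere in this network, and the choice by level alone says nothing of its function.

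The 4 differences that chose the genes were modest. In *P. qamdoensis* the median of WF minus BF over the 100 genes was 0.51 on the log2(FPKM + 1) scale (range 0.30 to 1.71), and that of GF minus BF was 0.53 (0.31 to 1.55). In *P. schneideri* the medians were 0.47 (0.31 to 0.94) and 0.39 (0.29 to 0.98). Over all 22126 genes the same 4 medians were 0.01, 0.02, 0.04 and −0.02. Expressed as mean FPKM, the median gene stood under BF at 66.1% of its WF level and 66.3% of its GF level in *P. qamdoensis*, and at 68.6% and 70.3% in *P. schneideri*. On that scale 1 gene, Pyun15G010920, stood above its WF level in *P. schneideri* (103%), with BF libraries at 1.15, 8.44 and 1.03 FPKM. All 4 differences reached 0.5 in 12 genes and 0.6 in 6. These values describe how the genes were picked and were not tested. The added 1 shrinks the log2 difference of weakly expressed genes.

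**Figure D1:**
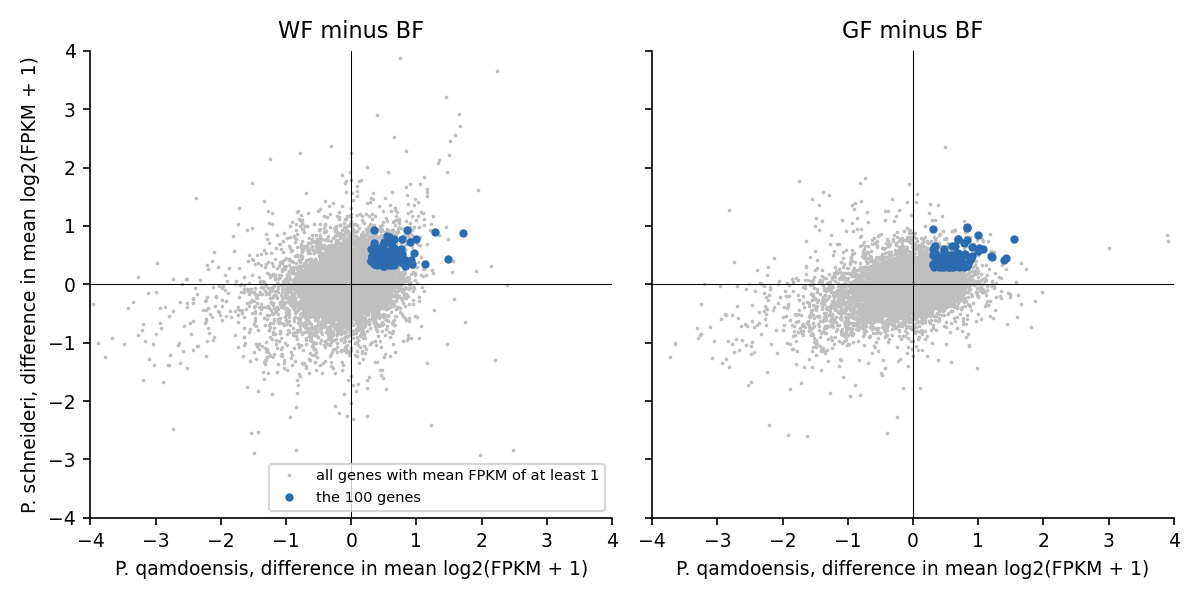
Difference in mean log2(FPKM + 1) of WF minus BF (left) and GF minus BF (right) in *P. qamdoensis* (horizontal axis, without BF replicate 1) and *P. schneideri* (vertical axis). Gray points are the 22126 genes averaging 1 FPKM or more, of which 4 lie outside the axes, and blue points are the 100 genes, which by the rule lie in the upper right of both panels, at differences of 0.29 or more.

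The limit that decided a gene's place was most often set by *P. schneideri*. Its GF minus BF difference was the smallest of the 4 in 55 genes and its WF minus BF difference in 19, against 13 each for the *P. qamdoensis* differences. The last genes kept were Pyun14G007380, Pyun04G013380 and Pyun09G008150, each with a smallest difference of 0.295. The next genes below the limit were Pyun14G001780, Populus_yunnanensis_newGene_2713 and Pyun05G011820, each at 0.293, so the 100 genes are the head of a continuous series and not a separate class. GF and WF means differed by less than 0.3 in both species in 91 genes. GF exceeded WF by 0.3 or more in *P. qamdoensis* alone in 7 genes, in *P. schneideri* alone in 2, and in both species in 0.

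The means of the 100 genes over 18 libraries ran from 1.28 to 165 FPKM with a median of 10.3, beside a median of 9.39 for all 22126 genes. A mean below 5 FPKM was found in 29 genes and a mean of 50 or more in 11. Genes listed as new, without a reference identifier, made up 9 of the 100, beside 584 of the 22126 genes averaging 1 FPKM or more. Only 8 of the 100 occur in the study's annotation lists as held here, some of them in part, and the other 92 have no name in the sources used here. Pyun02G002570 and Pyun02G002580 follow each other in identifier order, Pyun06G007120 and Pyun06G007140 have 1 gene between them, and Pyun15G013530 and Pyun15G013570 have 3. How reads of near-identical gene copies or of opposite strands were shared out is not given, so values of such genes are uncertain to that extent, and the number of fragments behind a value is unknown.

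The member with the clearest name was Pyun13G002930, annotated as histidine-containing phosphotransfer protein 1. In Arabidopsis, proteins of this family carry phosphate from cytokinin receptor kinases to response regulators in the nucleus. In *P. qamdoensis* it measured 31.9, 15.2 and 26.1 FPKM in WF replicates 1 to 3, 21.9, 39.7 and 20.1 in GF, and 6.42, 19.3 and 12.7 in BF. In *P. schneideri* it measured 43.8, 44.2 and 39.1 FPKM in WF, 30.5, 39.2 and 33.8 in GF, and 24.3, 20.8 and 25.01 in BF. The 3 *P. schneideri* BF libraries lay below all 6 others, whereas in *P. qamdoensis* BF replicate 2 lay above WF replicate 2. Its differences were 0.55 (WF minus BF) and 0.70 (GF minus BF) in *P. qamdoensis* and 0.83 and 0.54 in *P. schneideri*. In bulk leaf RNA, fewer cells of a type and less RNA per cell cannot be told apart.

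Pyun13G002930 was the only one of the 24 genes in the study's hormone signal transduction list to enter the 100. The 100 were taken from 22126 genes, so nothing is read from the number of members in a list of this size. The study chose that list on the *P. qamdoensis* libraries, so it is not independent evidence of direction there. The other genes annotated to the start of the cytokinin relay were the receptor kinases Histidine aspartate Kinase 3a (Pyun01G005630) and histidine kinase 3b (Pyun03G015950), whose Arabidopsis relatives perceive the hormone at a membrane. Kinase 3a was lower under BF by 0.42 and 0.76 in *P. qamdoensis* and by 0.39 and 0.17 in *P. schneideri* (from WF and GF). Kinase 3b was lower by 0.62, 0.86, 0.55 and 0.22 in the same order and was outside the choice on both grounds, since its smallest difference was below that of the last gene kept and its GF minus WF in *P. schneideri* was −0.33. The second phosphotransfer gene, Pyun08G018590, went the other way, with BF above WF by 0.35 in *P. qamdoensis* and 0.09 in *P. schneideri*. Pyun13G002950, annotated as the gibberellin receptor GID1C, was lower under BF by 0.55 and 0.72 in *P. qamdoensis* and by 0.27 and 0.23 in *P. schneideri* and ranked 263. GID1b (Pyun02G020140) had WF minus BF of 0.94 and GF minus BF of 1.45 in *P. qamdoensis*, but −0.34 and −0.16 in *P. schneideri*. Pyun19G002820 and Pyun19G002920, annotated as probable carboxylesterase 18 in the same list, had all 4 differences below 0. Of the 22 hormone genes averaging 1 FPKM or more, 8 were lower under BF in all 4 differences, beside 20.3% of all genes. In limma, at a fold change of 1.5 and a Benjamini-Hochberg adjusted p below 0.01, 0 of the hormone genes passed between BF and WF or GF, of 24 tested in *P. qamdoensis* and 23 in *P. schneideri*. At an unadjusted p under 0.05, all 9 *P. qamdoensis* libraries gave 10 lower and 5 higher in BF than WF and 12 lower and 7 higher in BF than GF. In *P. schneideri* 2 were lower and 2 higher against WF, and 2 lower and 0 higher against GF. Over all genes tested, 8.66% were lower in BF than WF and 10.5% lower than GF in *P. qamdoensis*. In *P. schneideri* these shares were 10.3% and 2.23%. The shares of higher genes at this p were not computed.

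None of the 6 light signaling genes of the study's primer list was among the 100. They are CRY1, a cryptochrome, PHYB, a phytochrome, COP1, HY5 and its relative HYH, and PIF4, a growth-promoting factor that phytochromes restrain in Arabidopsis. The study chose these genes on its *P. qamdoensis* libraries. All 4 differences were above 0 in 5 of the 6, beside 20.3% of all genes. The exception was COP1, with GF minus BF of −0.06 in *P. schneideri*. HYH (GF minus BF) and PIF4 (WF minus BF) each had a difference of only 0.014 in *P. schneideri*. The closest to the choice was PHYB (Pyun10G014030), with WF minus BF of 0.49 and GF minus BF of 0.29 in *P. qamdoensis*, 0.22 and 0.21 in *P. schneideri*, and rank 339. CRY1 (Pyun02G008950) followed at rank 856 with differences of 0.16, 0.23, 0.23 and 0.14. HY5 (Pyun10G000570) had 0.29 and 0.34 in *P. qamdoensis* and 0.35 and 0.04 in *P. schneideri*. limma called 0 of the 6 in the comparisons of BF with WF or GF. At an unadjusted p under 0.05 it gave 3 lower in BF than WF and 2 lower than GF in *P. qamdoensis*, and 1 and 0 in *P. schneideri*. Over all genes tested the lower shares were 8.66%, 10.5%, 10.3% and 2.23%, in the same order. By quantitative PCR the study reported HYH, PHYB and PIF4 as lower under BF in *P. qamdoensis*. It also reported COP1, CRY1, HY5 and PIF4 as higher under GF, and described these trends as matching its transcriptome data. In the *P. qamdoensis* libraries, GF minus WF was 0.11, 0.07, 0.05 and 0.13 for these 4 genes in that order. Members also numbered 0 in the study's lists of porphyrin and chlorophyll (6 genes), starch and sucrose (46), photosynthesis (6), antenna proteins (3) and circadian rhythm (8). In these lists 0, 3, 2, 0 and 0 genes, in that order, were lower under BF in all 4 differences, beside 20.3% of all genes. With 100 members among 22126 genes averaging 1 FPKM or more, lists this short would hold few members or none by size alone. Nothing is therefore read from the absence of members, here or among the light signaling genes. Of the 6 photosynthesis genes, 0 stayed within the limit on WF minus GF, and 16 of the 36 starch and sucrose genes averaging 1 FPKM or more did. limma called 0 genes of these 5 lists between BF and WF or GF in either species. The study listed them as differentially expressed between films in *P. qamdoensis* at the same thresholds. Over all 24147 genes limma called 1 lower and 0 higher in BF than WF there, and 0 either way against GF. The 0 of a list is therefore no sign that its genes were unchanged. At an unadjusted p under 0.05, photosynthesis genes in *P. schneideri* gave 6 lower in BF than WF and 2 lower than GF, and 0 in *P. qamdoensis*. Of the 44 starch and sucrose genes tested in *P. qamdoensis*, 19 were higher and 6 lower in BF than WF, and 22 higher and 3 lower in BF than GF. Of the 34 tested in *P. schneideri*, 6 were higher and 7 lower in BF than WF, and 4 higher and 0 lower in BF than GF. The lower shares of all genes given above for the light signaling genes stand beside these counts too, and shares of higher genes were not computed. The study chose this list on the *P. qamdoensis* libraries, so nothing is read from the contrast between the species.

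Pyun06G002130 and Pyun06G002340 belong to the study's lists of cyanoamino acid metabolism, the pathway that handles cyanogenic glycosides and the cyanide they release. Pyun06G002130 measured 2.92, 12.1 and 4.47 FPKM in *P. qamdoensis* WF, 6.22, 3.38 and 5.34 in GF and 2.19, 0.319 and 2.02 in BF. Its *P. schneideri* values were 2.71, 2.70 and 3.00 in WF, 0.485, 2.63 and 7.44 in GF and 0.625, 2.32 and 0.651 in BF. All *P. qamdoensis* BF values were below the other 6, but GF replicate 1 of *P. schneideri* was the lowest library of its species. Pyun06G002340 measured 7.78, 25.3 and 10.3 FPKM in *P. qamdoensis* WF, 13.7, 6.06 and 13.3 in GF and 0.871, 2.41 and 6.10 in BF, while no *P. schneideri* library exceeded 0.981 FPKM. In both genes a single WF library, replicate 2, held the highest *P. qamdoensis* value. These lists, too, were drawn up by the study on its *P. qamdoensis* libraries. Of the 11 genes averaging 1 FPKM or more in the list for WF against BF, these 2 were lower under BF in all 4 differences, and the list's median WF minus BF was −1.56 in *P. qamdoensis*, opposite in sign to both genes. limma called 0 of the 12 genes of this list tested in *P. qamdoensis* and 0 of the 4 tested in *P. schneideri* between BF and WF. At an unadjusted p under 0.05 it gave 8 higher and 2 lower in BF in the former and 0 in the latter. The lower shares of all genes were 8.66% and 10.3% in these 2 comparisons, and shares of higher genes were not computed.

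The terms of the other annotated members are mostly broad. Pyun10G015670, annotated for DNA binding, measured 62.0, 45.5 and 70.2 FPKM in *P. qamdoensis* WF, 78.7, 77.8 and 79.4 in GF and 5.95, 31.2 and 36.4 in BF, and in *P. schneideri* 62.7, 61.4 and 50.1 in WF, 40.9, 60.2 and 71.1 in GF and 47.1, 46.3 and 29.0 in BF. Its BF libraries were below all others in *P. qamdoensis* and below all but GF replicate 1 in *P. schneideri*. Pyun12G001750, with the same term, had differences of 0.92 and 1.42 in *P. qamdoensis* and of 0.42 and 0.44 in *P. schneideri*. Pyun01G025870, annotated for protein dimerization and found in the study's plant-pathogen interaction list, which is held here only in part, measured 14.4, 12.5 and 9.45 FPKM in *P. schneideri* WF, 8.35, 17.9 and 30.7 in GF and 9.16, 9.68 and 9.42 in BF. There the BF libraries were nearly level and overlapped WF, and GF replicate 3 held the highest value. Pyun19G002410, which carries only the root term molecular function, had differences of 0.65, 0.90, 0.75 and 0.49, and Pyun09G008150, annotated for protein binding, was the last gene kept.

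**Figure D2:**
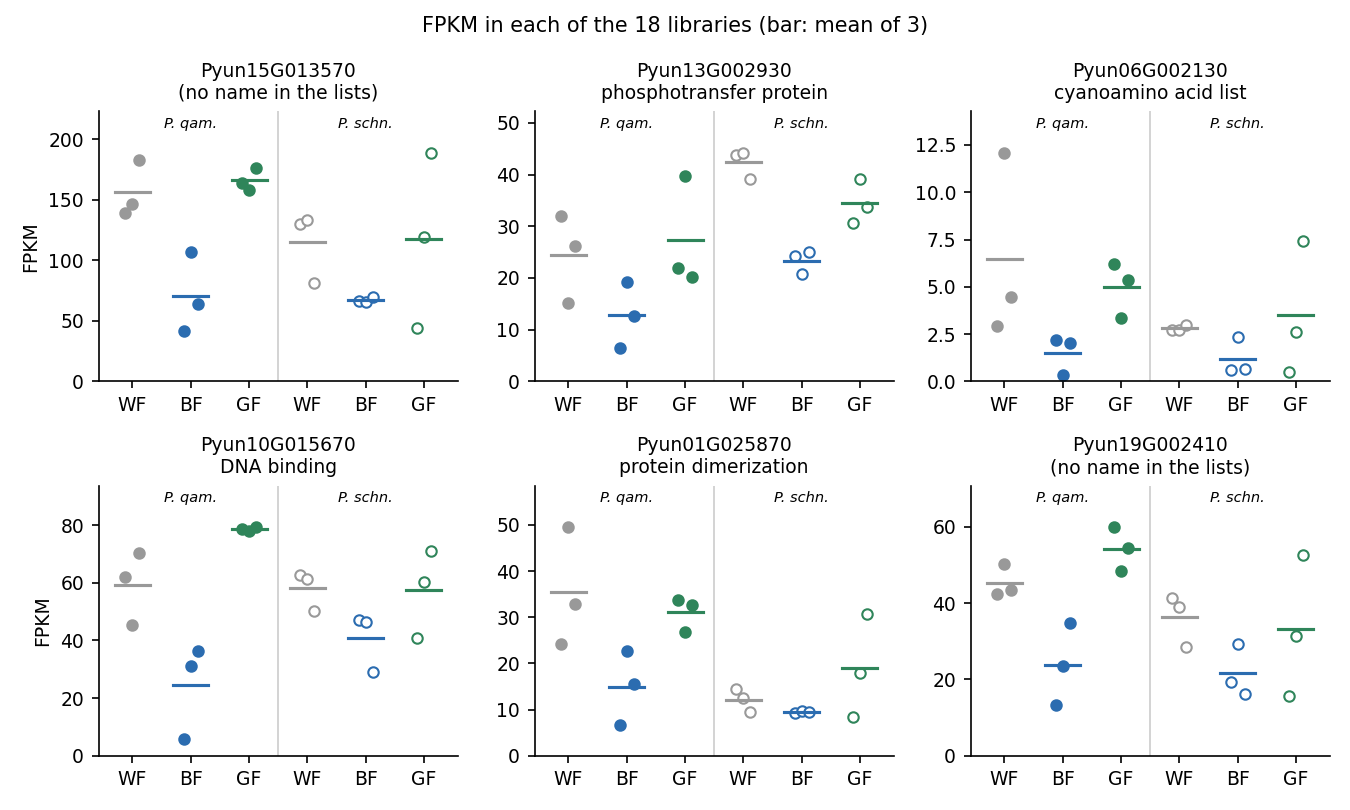
FPKM of 6 of the 100 genes in each of the 18 libraries, with the mean of the 3 libraries as a bar, for *P. qamdoensis* (filled) and *P. schneideri* (open) under WF, BF and GF. BF replicate 1 of *P. qamdoensis* is included in its mean. In Pyun13G002930 the *P. schneideri* BF values, 20.8 to 25.01 FPKM, lie below all its WF and GF values, and in Pyun15G013570 and Pyun10G015670 the lowest *P. schneideri* GF value is no higher than most BF values.

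The gene of highest rank was Pyun14G012600. It measured 14.3, 9.65 and 8.57 FPKM in *P. qamdoensis* WF, 9.20, 11.7 and 5.62 in GF, and 4.37 and 3.25 in BF replicates 2 and 3. In *P. schneideri* it measured 5.16, 5.46 and 5.42 in WF, 8.47, 6.08 and 2.42 in GF and 5.41, 0.950 and 2.18 in BF. The *P. schneideri* films overlapped, with BF replicate 1 among the WF values, and in *P. qamdoensis* BF replicate 1, left out of the score, stood at 9.61 FPKM, inside the WF range. Pyun02G006010, Pyun06G007120, Pyun03G014700 and Populus_yunnanensis_newGene_2721, also among the first 10, had differences between 0.51 and 1.08.

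Fully separated libraries were found in other members. Pyun02G002940, of rank 4, measured 17.3, 25.3 and 16.7 FPKM in *P. qamdoensis* WF, 22.4, 19.4 and 18.7 in GF and 2.58, 7.003 and 16.6 in BF. The *P. schneideri* values were 8.81, 8.43 and 6.30 in WF, 6.29, 8.27 and 14.3 in GF and 2.94, 5.20 and 4.49 in BF. In both species all 3 BF libraries lay below all 6 others, though BF replicate 3 of *P. qamdoensis* by less than 0.1 FPKM. Populus_yunnanensis_newGene_3442 measured 8.02, 9.76 and 8.09 FPKM in *P. qamdoensis* WF, 9.35, 9.74 and 9.87 in GF and 0.381, 5.56 and 6.01 in BF. Its *P. schneideri* values were 8.27, 6.98 and 6.70 in WF, 7.22, 9.38 and 7.31 in GF and 5.56, 5.29 and 4.79 in BF, again without overlap. Pyun06G021700, singled out after its values were seen, measured 37.3 to 49.4 FPKM in the 6 *P. qamdoensis* WF and GF libraries against 26.9, 30.5 and 29.6 in BF, and 37.1 to 52.4 against 27.3, 34.5 and 26.6 in *P. schneideri*.

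Among abundant members, Pyun15G013570 measured 139, 147 and 183 FPKM in *P. qamdoensis* WF, 164, 158 and 176 in GF and 41.7, 107 and 63.7 in BF. Values in *P. schneideri* were 130, 133 and 81.7 in WF, 44.5, 119 and 189 in GF and 66.7, 65.6 and 69.4 in BF. BF was lowest in every *P. qamdoensis* comparison, and in *P. schneideri* GF replicate 1 alone lay below the BF libraries. Pyun16G006250, the most abundant of the 100, measured 158 to 195 FPKM in the *P. qamdoensis* WF and GF libraries against 66.4, 92.7 and 126 in BF. Its *P. schneideri* values were 220, 201 and 163 in WF, 112, 219 and 248 in GF and 143, 187 and 119 in BF, so that BF and WF overlapped. Pyun12G000100 measured 127 to 157 FPKM in the *P. qamdoensis* WF and GF libraries against 48.4, 94.8 and 92.4 in BF, and in *P. schneideri* 151, 134 and 135 in WF, 112, 149 and 170 in GF and 113, 109 and 97.2 in BF. GF replicate 1 of *P. schneideri* fell within its BF range there too. The remaining 2 of the 5 most abundant, Pyun02G008240 and Pyun05G024400, had differences between 0.35 and 0.72.

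Some members were higher under GF than WF, so that the order was GF, WF, BF. Pyun18G011920 measured 32.0, 30.0 and 27.3 FPKM in *P. qamdoensis* WF, 43.5, 48.3 and 48.2 in GF and 11.96, 16.3 and 31.3 in BF. In *P. schneideri* it measured 56.0, 49.99 and 46.2 in WF, 52.3, 64.03 and 69.0 in GF and 37.3, 57.8 and 28.6 in BF. GF and WF did not overlap in *P. qamdoensis*, where GF minus WF was 0.63, and overlapped in *P. schneideri*, where it was 0.27. Pyun02G004930 had GF minus WF of 0.32 and 0.30, at a mean of 1.28 FPKM over 18 libraries. Over the 100 genes GF lay above WF in 55 in *P. qamdoensis* and in 26 in *P. schneideri*, with median differences of 0.02 and −0.08 beside 0.01 and −0.07 over all genes.

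No single member passed the test between films. limma with all 9 libraries of a species, BF replicate 1 included, fitted on all genes averaging 0.5 FPKM or more, called 0 of 100 members lower in BF than WF in *P. qamdoensis* (0.00414% of all genes tested) and 0 of 100 lower in BF than GF (0%), at a fold change of at least 1.5 with Benjamini-Hochberg adjusted p below 0.01. In *P. schneideri* it called 0 of 99 against WF (0.0084%) and 0 of 99 against GF (0%), Pyun06G002340 being too low to be tested there. At these thresholds the study reported many more genes between films in *P. qamdoensis* than limma called here. At an unadjusted p under 0.05, limma gave 69 members lower in BF than WF in *P. qamdoensis* (8.66% of all genes) and 71 lower than GF (10.5%), and in *P. schneideri* 56 (10.3%) and 29 (2.23%). The rule used these contrasts, so nothing is read from the excess over all genes. With 3 libraries against 3, an exact permutation test of a single gene cannot give a two-sided p below 0.1. In *P. schneideri*, library weights raised the count against WF to 4 members and leaving out GF replicate 1 raised it to 1, beside 0.81% and 0.113% of all genes in those fits. In *P. qamdoensis*, leaving out BF replicate 2 gave 1 member against WF (0.0372%) and 1 against GF (0.0414%).

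The libraries of the films were fully separated in a part of the members. All 3 BF libraries lay below all 6 WF and GF libraries in 49 members in *P. qamdoensis* (6.98% of all genes) and in 18 in *P. schneideri* (1.43%). Both held in 7 members (0.113%), among them Pyun02G002940 and Populus_yunnanensis_newGene_3442. Without *P. qamdoensis* BF replicate 1 the first count was 57 (9.24%), without *P. schneideri* GF replicate 1 the second was 65 (7.11%), and without both libraries 39 members were separated in both species (1.39%). In *P. schneideri*, BF lay below all WF libraries in 73 members (16.8%) and below all GF libraries in 18 (3.16%).

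GF replicate 1 of *P. schneideri* had levels like those of the BF libraries for these genes. Measured from each gene's mean over the WF and GF libraries of its species, the median of the 100 genes was −0.44 in GF replicate 1, and −0.43, −0.28 and −0.59 in BF replicates 1 to 3, while it was 0.14 and 0.25 in GF replicates 2 and 3. Over all 22126 genes the median in GF replicate 1 was −0.08. GF replicate 1 was below all WF libraries and both other GF libraries in 83 members (35.8% of all genes). It was at or below the highest BF library in 78 (80.6%) and below all BF libraries in 29 (35.4%), shares no higher than those of all genes. The SD of log2(FPKM + 1) between the *P. schneideri* GF libraries had a median of 0.41 over the members and 0.20 over all genes. Without GF replicate 1, the members' median GF minus BF in *P. schneideri* moved from 0.39 to 0.61, and the rule applied without it kept 31 of the 100. All 69 genes that left still had 4 differences above 0, and 1 of them went over the limit on WF minus GF. What sets this library apart was not tested.

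**Figure D3:**
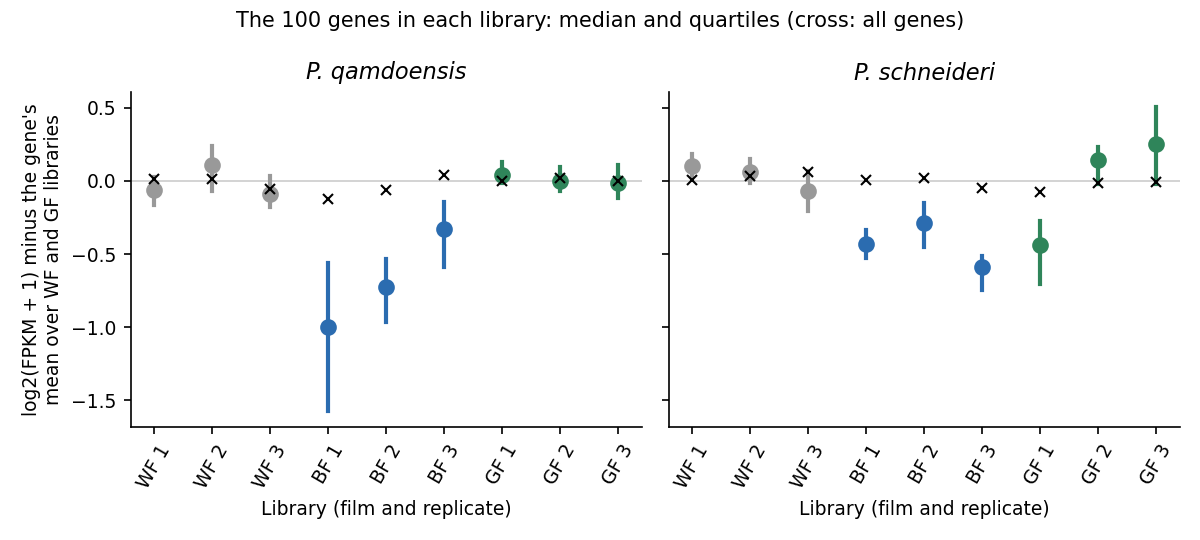
Median (points) and quartiles (bars) over the 100 genes of log2(FPKM + 1) minus the gene's mean over the 6 WF and GF libraries of its species, for each of the 18 libraries, with the median over all 22126 genes as a cross. All 6 BF libraries lie below 0 for the 100 genes, from −0.28 to −0.995, and so does *P. schneideri* GF replicate 1 at −0.44, whereas the crosses stay between −0.12 and 0.06.

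The BF libraries of *P. qamdoensis* also differed among themselves. The same median was −0.72 in BF replicate 2 and −0.33 in BF replicate 3, and BF replicate 2 was below BF replicate 3 in 74 members (62.3% of all genes). The median SD between the 3 BF libraries was 0.51 over the members against 0.33 over all genes. With BF replicate 2 left out the rule kept 53 of the 100, and with BF replicate 3 left out 40.

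BF replicate 1 of *P. qamdoensis* was the only library left out of the film means and the score, though it counted toward the FPKM minimum, and in it most of the 100 genes were low as well. It lay below the WF mean in 91 members and below the GF mean in 91, and above both in 8. These 3 counts were not made over all genes, so how far they depart from all genes is unknown. WF minus BF replicate 1 had a median of 1.01 over the members and 0.12 over all genes, and GF minus BF replicate 1 had 0.97 and 0.13. It was below all 6 WF and GF libraries in 85 members (43.6% of all genes) and above all 6 in 5 (28.4%). Its median r with the other *P. qamdoensis* libraries was 0.85. The same median for each of the others, with BF replicate 1 among the libraries compared, was 0.94 to 0.98. It is a single library and shares the WF and GF libraries with the rule, so these values are a description with no test. Relative to BF replicates 2 and 3 it was lower still in 56 members (42.8%) and above both in 16 (29%).

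The distance of BF replicate 1 from the other BF libraries ran from −3.25 to 1.46 on the log2 scale. Pyun02G001160, at the lower end and named after its values were seen, measured 2.37 FPKM in BF replicate 1, 22.4 and 43.2 in BF replicates 2 and 3, 58.1, 47.4 and 56.8 in WF and 56.4, 60.8 and 57.8 in GF. Pyun15G000200 went the other way, with 57.3 FPKM in BF replicate 1, 22.0 and 22.7 in BF replicates 2 and 3, 28.0, 27.9 and 28.3 in WF and 31.7, 33.3 and 29.0 in GF. Populus_yunnanensis_newGene_3082 measured 5.41 FPKM in BF replicate 1, 1.78 and 0.954 in the other BF libraries, 2.27, 2.55 and 1.28 in WF and 3.36, 3.35 and 1.75 in GF, so that BF replicate 2 lay within the WF and GF values. With it included, the rule kept 52 of the 100, and 97 of the 100 still had all 4 differences above 0.

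**Figure D4:**
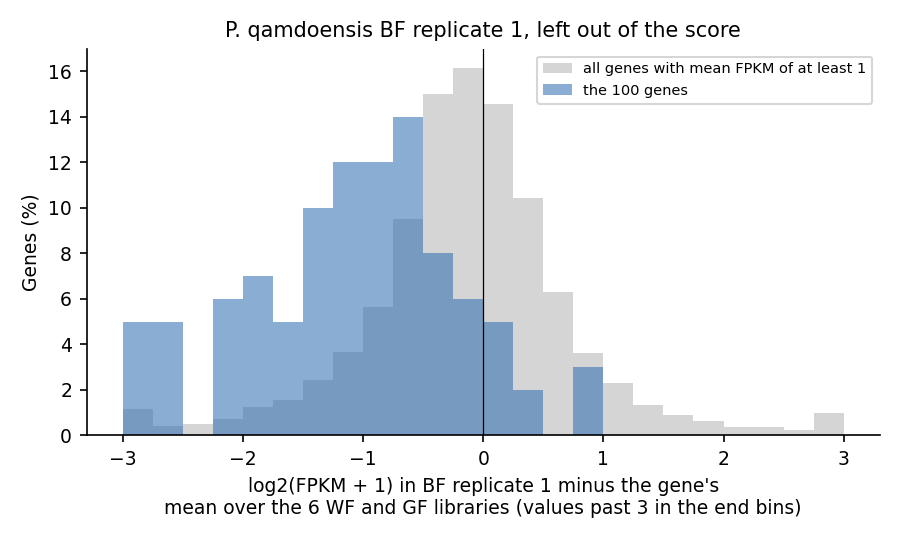
Share of genes (%) by log2(FPKM + 1) in *P. qamdoensis* BF replicate 1 minus the gene's mean over the 6 WF and GF libraries, for all 22126 genes (gray) and the 100 genes (blue), in steps of equal width with values past 3 placed in the end bins. The 100 genes lie mostly below 0, with a median of −0.995, against −0.12 for all genes.

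The rule compared films within a species, and the level of one species against the other entered it directly only through the FPKM minimum over all 18 libraries. That level was tested under each film in limma over all 18 libraries, *P. qamdoensis* minus *P. schneideri*. Reads of both species were compared to the genome of *P. yunnanensis*, so a species difference in mapping and one in transcript level cannot be told apart. Most members were not called. Called members numbered 6 under WF, 4 under GF and 4 under BF, beside 5.87%, 4.69% and 5.52% of all 24273 genes tested. Under WF, 4 were higher (2.38% of all genes) and 2 lower (3.49%) in *P. qamdoensis*. Under GF, 3 were higher (2.2%) and 1 lower (2.49%), and under BF 3 were higher (2.4%) and 1 lower (3.12%). These shares are close to those of all genes. A gene could reach the minimum through 1 species alone, and 5 members averaged under 1 FPKM in the other. Of these, Pyun06G002340, Populus_yunnanensis_newGene_908 and Pyun13G015120 were called, and nothing is read from their calls. Among the 95 members averaging 1 FPKM or more in each species, a minimum added after seeing the data, 3 were called under WF (3.98% of the 20870 genes meeting it), 1 under GF (3%) and 2 under BF (4.12%). In all, 94 members were called under no film. The share of all genes called under no film was not computed, so nothing is read from this count. The median difference over the members was −0.05 under WF, 0.06 under GF and −0.19 under BF, beside −0.07, 0.01 and −0.06 over all genes. Under BF, 24 members were higher in *P. qamdoensis*, against 43.2% of all genes. The rule chose members on the other BF libraries, and BF replicate 1 of *P. qamdoensis*, low in most members, is in this fit. Nothing is therefore read from the species difference over the members under BF. The 3 libraries of *P. qamdoensis* lay above all 3 of *P. schneideri* in 13 members under WF (15.2% of all genes), 10 under GF (16.4%) and 5 under BF (9.39%), and below them in 22 (25.4%), 4 (14.2%) and 17 (14.4%). The counts moved by more than 1.5 times with single libraries. They fell to 3 under WF without *P. schneideri* WF replicate 1 (3.68% of all genes) or 2 (3.45%), and to 2 under BF without *P. schneideri* BF replicate 1 (2.98%). Under GF, the count was 2 without any 1 of the 3 *P. qamdoensis* GF libraries or *P. schneideri* GF replicates 2 or 3 (2.73% to 3.49% of all genes).

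Populus_yunnanensis_newGene_907 was higher in *P. qamdoensis* under all films. It measured 13.5, 13.6 and 12.8 FPKM in *P. qamdoensis* WF, 10.01, 13.0 and 16.9 in GF and 13.7, 7.41 and 6.49 in BF. The *P. schneideri* libraries had 2.24, 3.02 and 3.00 in WF, 2.39, 2.95 and 3.20 in GF and 0.477, 1.57 and 1.02 in BF. No library of one species overlapped the other, and the log2 difference was 1.94 under WF (SE 0.25, limma Benjamini-Hochberg adjusted p = 8.26e-05), 1.87 under GF (adjusted p = 0.000127) and 2.31 under BF (adjusted p = 1.37e-05). Populus_yunnanensis_newGene_908, the next number in the list of new genes and named after its values were seen, was also among the 100 and also higher in *P. qamdoensis* under every film, by 1.24 under WF. Its *P. qamdoensis* WF values of 3.19, 2.65 and 3.29 FPKM stood against 0.723, 0.644 and 0.754 in *P. schneideri*, a species in which it was below the minimum. The positions of these genes were not used here.

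Pyun06G002340, of the cyanoamino acid lists, had a species difference of 3.22 under WF (SE 0.46). Its *P. qamdoensis* WF values of 7.78, 25.3 and 10.3 FPKM stood against 0.375, 0.482 and 0.598 FPKM in *P. schneideri*. The difference was 2.91 under GF and 1.70 under BF, and whether the films differ in this was not tested. It reached the FPKM minimum through *P. qamdoensis* alone, so these differences are a description. Pyun05G004430 was higher in *P. qamdoensis* by 1.51 under WF (SE 0.30, limma adjusted p = 0.0033), with 38.0, 26.5 and 26.0 FPKM against 8.81, 9.99 and 10.6. It was called under BF as well (1.68, limma adjusted p = 0.00161).

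Lower in *P. qamdoensis* were Pyun13G015120 and Pyun03G015320. Pyun13G015120 measured 0.930, 0.493 and 0.852 FPKM in *P. qamdoensis* WF and 4.39, 3.88 and 3.09 in *P. schneideri* WF, a difference of −1.44 (SE 0.27). It reached the minimum through *P. schneideri* alone, so this too is a description. Pyun03G015320 measured 4.31, 6.54 and 4.41 FPKM against 11.4, 10.03 and 9.37, a difference of −0.90 (SE 0.21, limma adjusted p = 0.00903). It passed the threshold narrowly, and the adjusted p lay between 0.0111 and 0.0436 in 18 of the 26 alternatives. All 6 members called under WF, including those that reached the minimum through a single species, had libraries of the 2 species that did not overlap. How often this holds among all genes called was not computed, so nothing is read from it.

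**Figure D5:**
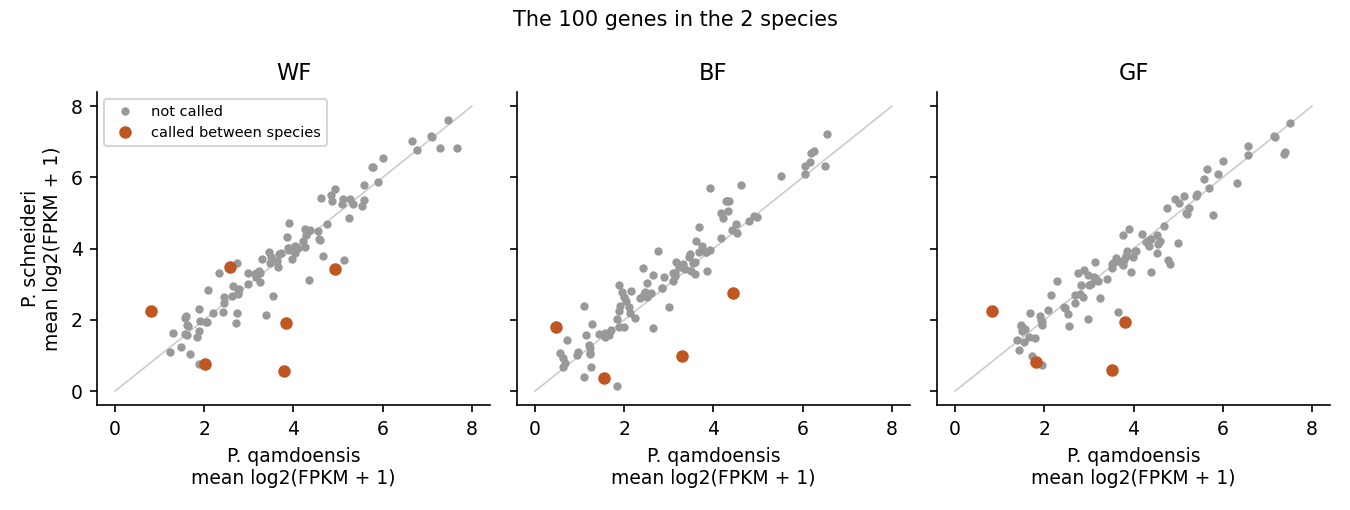
Mean log2(FPKM + 1) of the 100 genes in *P. qamdoensis* (horizontal axis) and *P. schneideri* (vertical axis) under WF, BF and GF, with the line of equal levels. Orange points are members called between species by limma, 6 under WF, 4 under BF and 4 under GF, of which 3, 2 and 1 average 1 FPKM or more in each species, and gray points are members not called.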

How the data were processed

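Leaf RNA of 18 libraries was sequenced, 3 per film and species. Reads were filtered and mapped to *P. yunnanensis* by the authors, who deposited 1 table of FPKM values. The submitters' processing notes name HISAT2 and StringTie, without versions. The deposited table gives no fragments behind a value, so no counting error was attached. Columns matching no sample numbered 0.

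Means, ranks and counts were computed in Python 3.11.15 (numpy 2.4.6, pandas 2.3.3, matplotlib 3.10.9). Models were fitted to log2(FPKM + 1) in limma 3.58.1 (R 4.3.3) with eBayes and trend, over genes averaging 0.5 FPKM or more. Film contrasts used the 9 libraries of a species, and species contrasts all 18. The study's thresholds were used for calls, a fold change of 1.5 with a Benjamini-Hochberg adjusted p below 0.01. The fit was tested on simulated data with 200 changed genes.

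Named genes were the 10 of highest rank, 3 on each side of the limit, every member in the study's lists, the 5 most abundant, up to 3 called in each direction under WF without overlap, the 3 whose smaller GF minus WF over the 2 species was largest, the 3 in which BF replicate 1 lay farthest above the other BF libraries, and the 6 light signaling genes. The members, lists and tests were chosen with earlier results of these data known. The lists were drawn up by the study on the *P. qamdoensis* libraries. Genome sequence was not used here.

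The alternatives tried were a pseudocount of 0.1, other FPKM minimums, no limit on WF minus GF, library weights, eBayes without trend, median-ratio scaling, quantile normalization, an adjusted p below 0.05, the replicate number as a block and leaving out each library. The medians of the 4 differences and the counts of separated members without the libraries that stood apart, and the species calls among genes averaging 1 FPKM or more in each species, were added after seeing the data.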

Additional observations from a re-analysis of the deposited data

How the results depend on the processing

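Which genes make up the 100 depended on the libraries. Of the 100, the rule kept 52 with *P. qamdoensis* BF replicate 1 included, 55 with no limit on WF minus GF, 70 with a pseudocount of 0.1, 71 with a mean of at least 5 FPKM, 77 after quantile normalization, 83 after median-ratio scaling and 96 with a minimum of 0.5 FPKM. Leaving out each library in turn kept 31 to 96. It was under 67 without *P. qamdoensis* BF replicate 2 (53) or 3 (40), or without *P. schneideri* BF replicate 2 (59) or 3 (61) or GF replicate 1 (31), 2 (62) or 3 (50). The cause was not tested. The members' 4 median differences stayed between 0.39 and 0.68 under the alternatives added after seeing the data. The count of members with *P. schneideri* BF below all WF and GF libraries moved from 18 to 65 without GF replicate 1.

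Members called lower in BF than WF in *P. schneideri* numbered 1 at an adjusted p below 0.05 (0.0798% of all genes), 4 with library weights (0.81%) and 0 to 1 over the left-out libraries. The count was 0 to 1 for both *P. qamdoensis* comparisons when single libraries were left out, and 0 throughout for BF against GF in *P. schneideri*. Calls between species under WF numbered 2 with a mean of at least 5 FPKM (4.16% of all genes), which leaves fewer genes tested, and 15 with library weights (13.5%). They numbered 3 with at least 1 FPKM in each species (3.98%), and 3 to 9 over the left-out libraries (3.45% to 9.54%). Under GF they numbered 7 at an adjusted p below 0.05 (7.92%), 1 with at least 5 FPKM (3.09%) and 16 with library weights (14.7%). With at least 1 FPKM in each species 1 was called under GF (3%), and 2 to 6 over the left-out libraries (2.73% to 7.9%). Under BF they numbered 11 (10.8%), 2 (4.25%), 4 (3.6%) and 2 (4.12%) in the same settings and 2 to 6 over the left-out libraries (2.98% to 8.37%). With the replicate block, calls between species numbered 5 under WF (5.03%), 3 under GF (3.95%) and 3 under BF (4.55%), and the film comparisons 0. Whether the numbers pair the samples was not established. Same-numbered libraries deviated together with r from −0.51 to 0.25 in *P. qamdoensis* and from −0.30 to 0.11 in *P. schneideri*. For differently numbered libraries r ran from −0.40 to 0.54 and from −0.26 to 0.38. Besides Pyun03G015320, Pyun13G015120 missed the threshold without *P. qamdoensis* WF replicate 2 or *P. schneideri* WF replicate 1 or 2, and Pyun05G004430 without *P. qamdoensis* WF replicate 1 or any *P. schneideri* WF library. No named difference between species changed sign.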
